A study of Mus musculus with 20 samples.

Results

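The probes described here are the 123, of 42006 on the array (0.293%), that read higher in adult Tabby than in adult wild-type (WT) mouse footpad skin. A probe was taken when the log2 ratio of footpad to reference on each of the 2 Tabby adult arrays was at least 0.6 above that on each of the 2 WT adult arrays, and when the processed footpad signal was at least 100 on both Tabby adult arrays. The members were thus chosen by the ratios and Cy3 signals of the 4 adult arrays, and their adult values are given as a description, with no test. The same rule turned round, with WT above Tabby and the signal minimum on the WT arrays, was met by 642 probes. Since the files name probes only by Z-number identifiers, the probes could not be tied to genes, and no genome position is given.

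The study measured total RNA of footpad skin from WT and Tabby mice, both of strain C57BL6/J per the labels, at 5 ages: late gestation (E17.5, in days of embryonic development), the first week after birth (P1, P3 and P5, in days) and adulthood (postnatal day 56). There were 2 biological replicates in each of the 10 groups, 20 arrays in all. Every array carried footpad RNA in the Cy3 (green) dye and a common reference in the Cy5 (red) dye, a pool of RNA from mouse cell lines mixed with embryonic stem cell RNA, and no dye was swapped. The labels give neither the Tabby allele, nor the sex of the mice, nor how many animals made up a sample, so it is not known whether samples were pooled. Each stage was on a slide of its own, with the WT arrays at positions 1 and 2 and the Tabby arrays at positions 3 and 4, so stage cannot be told apart from slide, nor genotype from position. Scanning took place on 3 days, and both the E17.5 slide and the adult slide had a day to themselves.

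Tabby mice lack functional ectodysplasin A, a ligand of the tumour necrosis factor family that signals through its receptor Edar in the embryonic epidermis. The signal is needed for placodes of hair, teeth and glands, and the footpads of Tabby mice do not form the eccrine sweat glands that WT footpads carry. Footpad skin also holds epidermis, dermis, vessels, nerves and fat. In such whole-tissue RNA, more cells of a type and more RNA per cell cannot be told apart.

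The 12 members with the widest adult gap are shown by their probe sequence, since the sequence is the identity the files give. The gap is the distance on the log2 scale from the lower Tabby to the higher WT adult array. All are 60 bases long, in the files' orientation, in lower case, with nothing marked, and in order of falling gap.
Z00026029-1: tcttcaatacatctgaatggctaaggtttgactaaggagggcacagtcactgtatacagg
Z00028299-1: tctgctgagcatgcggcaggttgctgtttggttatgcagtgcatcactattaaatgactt
Z00071846-1: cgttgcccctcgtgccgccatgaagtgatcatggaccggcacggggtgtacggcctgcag
Z00006534-1: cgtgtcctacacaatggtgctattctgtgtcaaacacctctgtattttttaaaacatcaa
Z00060525-1: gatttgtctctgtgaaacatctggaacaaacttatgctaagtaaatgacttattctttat
Z00034359-1: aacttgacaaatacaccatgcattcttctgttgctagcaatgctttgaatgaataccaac
Z00034575-1: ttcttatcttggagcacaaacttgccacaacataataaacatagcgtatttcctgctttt
Z00054761-1: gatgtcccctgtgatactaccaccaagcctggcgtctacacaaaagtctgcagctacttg
Z00074131-1: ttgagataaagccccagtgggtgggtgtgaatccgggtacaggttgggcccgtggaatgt
Z00024821-1: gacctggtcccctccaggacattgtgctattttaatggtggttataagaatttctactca
Z00031876-1: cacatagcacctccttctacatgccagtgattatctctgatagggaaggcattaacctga
Z00026827-1: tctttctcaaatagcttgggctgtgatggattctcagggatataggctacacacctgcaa

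As a set, the 123 sequences resembled the rest of the array. Their median GC content was 43.3%, as over all probes. A reading frame free of stop codons on the printed strand was present in 80.5% of members and 83.5% of all probes. The hexamers AATAAA or ATTAAA, searched on the printed strand only, were present in 13.0% of members and 9.9% of all probes. No pair of members shared 20 or more consecutive bases. The member Z00049894-1 shared 40 bases with Z00006545-1, which missed the rule with a gap of 0.5997. None of the members lay within the RefSeq promoter windows (GRCm38.p6), and none shared 20 bases with a RefSeq miRNA hairpin.

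The median adult gap of the 123 members was 0.82 and the median difference between the Tabby and WT means 1.11, a 2.16-fold difference. For 3 members, described below, the WT adult signal was not well above background, and only a bound holds for the fold. Over the other 120, the gap was 0.60 to 1.84 and at least 1 in 24 members. Their difference of means was 0.70 to 3.80, at least 1 in 74 and at least 2 in 8. In Cy3, the median of the members' Tabby adult means was at percentile 59.2 of all probes, and the means ran from 102.5 to 46640. The signal minimum, met by 23060 of the 42006 probes, raises this percentile. No percentile was taken among the probes that met it. At the edge of the gap, Z00060191-1, Z00022639-1 and Z00021536-1 were just inside at 0.6, 0.607 and 0.608, and Z00006545-1, Z00055704-1 and Z00054899-1 just outside at 0.5997, 0.597 and 0.596. At the edge of the signal minimum, Z00061939-1, Z00027422-1 and Z00034575-1 were just inside at 102, 103 and 104, and Z00025008-1, Z00058686-1 and Z00075034-1 just outside at 96.5, 96.2 and 96.0. Without the minimum, 647 probes had the gap.

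In 115 of the 123 members the footpad signal was higher by more than the reference was lower. After each channel was centred on its array median, the Cy3 signal was higher in Tabby by a median of 1.1 and the Cy5 signal by 0.02. In 8 members the reference was lower in Tabby by more than the footpad was higher, among them Z00029374-1, with 0.35 in Cy3 and -1.21 in Cy5, and Z00022488-1, with 0.33 and -0.81. None of these 8 had a Cy5 signal well above background on all 4 adult arrays, a mark the scanner software gives each spot, against 85 of the 123. The clearest of them was Z00071844-1, whose Cy3 signal was 255 and 256 in WT and 197 and 134 in Tabby, while its Cy5 signal was 22.7 and 43.4 in WT and 7.2 and 6.6 in Tabby. Its footpad signal was lower in Tabby, and its ratio was higher only through the lower reference signal. After normexp and loess its difference was -0.30, the only one below 0. None of the members was saturated or an outlier spot on an adult array.

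Z00026029-1 had the widest gap, 4.63. In adults it read -2.17 and -0.22 in WT and 4.41 and 4.63 in Tabby. Its processed Cy3 signal was 5.7 and 13.1 in WT and 550 and 351 in Tabby. On the 16 earlier arrays of both genotypes its ratio was 3.35 to 5.50, with a median of 5.01. The WT adult arrays were thus the only pair of the 20 at a low level.

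Z00060525-1 was likewise low on the WT adult arrays alone. Its ratio was 1.52 to 1.94 on all 16 earlier arrays, with a median of 1.83. In adults it was -1.83 and 0.00 in WT and 1.74 and 2.19 in Tabby. In the ratio the Tabby adults were thus near the earlier level and the WT adults were not. Cy3 was 7.2 and 22.6 in WT adults and 681 and 452 in Tabby adults. On the earlier arrays Cy3 was 492.7 to 2165, with a median of 1321. Its reference signal moved as well, with 25.7 and 22.5 beside WT adults and 203 and 98.8 beside Tabby adults, against a median of 376 over the earlier arrays. The part of the reference in this difference was not tested.

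Z00028299-1 was the third member without a Cy3 signal well above background on either WT adult array. It read -0.49 and 0.37 in WT adults and 3.68 and 3.37 in Tabby adults. Its earlier values were uneven: 2.53 to 2.92 on the 4 E17.5 arrays, but exactly 0 on 7 of the 16 earlier arrays, a value the array files list in place of a ratio. Its reference signal was 7.6 and 5.6 beside WT adults and 35.5 and 30.4 beside Tabby adults. For these 3 members only a bound can be given for the fold. Taking as floor the dimmest Cy3 value among probes that passed this mark on each WT array, after loess and quantile normalization of the average signal, adult Tabby was at least 3.05-fold higher for Z00026029-1, 2.88-fold for Z00028299-1 and 3.83-fold for Z00060525-1; these bounds are open to dye bias. Over the whole array, 7 probes, Z00026029-1 and Z00060525-1 among them, were well above background in Cy3 on all 16 earlier and both Tabby adult arrays and on neither WT adult array. The reverse, present everywhere but in Tabby adults, held for 37 probes. This count was chosen after the values were seen.

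The Cy3 signal of Z00006534-1 on the earlier arrays was 165100 to 729200. Its ratio was 3.93 to 4.80 before adulthood and fell to -0.41 and -0.34 in WT adults and to 1.98 and 1.47 in Tabby adults. Both genotypes were far lower as adults, and Tabby less so. Z00034359-1 followed the same order, at 5.21 to 7.22 on the 16 earlier arrays, 1.85 and 2.30 in WT adults and 3.97 and 5.10 in Tabby adults. Z00074131-1 read 3.71 and 3.05 in WT and 3.93 and 3.49 in Tabby at P5, then 0.68 and 0.66 in WT adults and 2.12 and 2.57 in Tabby adults. Z00054761-1 read 1.18 and 1.22 in WT adults and 2.68 and 3.18 in Tabby adults, and Z00024821-1 0.02 and 0.01 against 1.55 and 1.44. The replicates of both genotypes lay close together in Z00024821-1, which had been highest at P5, at 2.28 and 2.55 in WT and 1.83 and 2.01 in Tabby.

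Z00071846-1 went the other way. It was 0.66 to 1.75 on the 8 arrays of P1 and P3, 1.5 and 1.52 in WT adults and 3.55 and 3.36 in Tabby adults, with both Tabby adult arrays above all 16 earlier arrays. Z00026827-1 read -0.55 and -1.05 in WT adults and 0.84 and 0.94 in Tabby adults, beside 2.20 to 2.61 on the E17.5 arrays. Z00031876-1 was high at P1, at 4.62 to 5.30, below its P1 values at P3 and P5, where Cy3 was not well above background on 7 of 8 arrays, and high again in adults, with 3.10 and 4.97 in WT and 6.55 and 6.38 in Tabby.

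Set against P5, the members fell into a few courses. A change of more than 0.6 in the loess-adjusted log2 ratio between the P5 and adult means was counted, a threshold chosen after the values were seen. These counts rest on the adult values that chose the members, so low WT and high Tabby adults are partly built in, and they are a description. In 31 members the ratio was lower in adults of both genotypes, by a median of -2.71 in WT and -1.47 in Tabby. That is 25.2% of the members, beside 8.9% of the 41988 probes with values. In 14 (11.4%, beside 2.46%) it was lower in WT adults only, and in 2 lower in WT and higher in Tabby (0.0214% of all). In 40 (32.5%, beside 75.1%) it was level in both. In 20 (16.3%, beside 1.53%) it was higher in Tabby adults only, in 15 (12.2%, beside 7.24%) higher in both, and in 1 lower in Tabby only (1.88% of all). The 47 members lower in WT adults than at P5 included 7 of the 12 with the widest gap. In 37 members the ratio was higher in Tabby adults than at P5. Z00048360-1 was among those higher in both: it read -3.13 and -3.47 in WT and -2.90 and -2.88 in Tabby at P5, and 0.28 and 0.18 in WT and 1.71 and 1.14 in Tabby adults.

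Some members rested on 1 Tabby adult array far more than the other. Replicate 1 was above replicate 2 by more than 1 in 12 members (9.76%), and replicate 2 above replicate 1 in 3 (2.44%). Over the 23060 probes with a Cy3 signal of at least 100 on both Tabby adult arrays the shares were 1.15% and 1.04%. In 62 members the replicates were within 0.3, and the WT replicates differed by more than 1 in 6. The rule takes the lower Tabby array, so a probe very high on 1 array can still enter.

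In 3 members the replicates were more than 4 apart. Z00058188-1 read -1.39 and -0.93 in WT and 4.28 and -0.06 in Tabby adults, with a Cy3 signal of 56444 on Tabby replicate 1 and 1783 on replicate 2. Z00023637-1 read -1.59 and -1.21 in WT and 4.15 and -0.36 in Tabby. Z00034575-1 read -4.64 and -4.28 in WT and 1.44 and -2.74 in Tabby. In all 3 both Tabby arrays were above both WT arrays, but the mean difference came mostly from replicate 1. Z00058171-1 had Cy3 signals of 94.7 and 92.1 in WT and 5633 and 198 in Tabby, while its ratios were 4.89 and 4.77 in Tabby. Its Cy5 signal on Tabby replicate 1 was 191, against a median of 10.8 and a highest value of 66.2 on the other 19 arrays. Z00031876-1 had a Cy5 signal of 85.9 there against a median of 11.1 and a highest value of 37.6. The widest case was Z00011419-1, with Cy5 signals of 8.5 and 6.8 beside WT adults, 1225 on Tabby replicate 1 and 7.0 on replicate 2. Its Cy3 signals were 57.0 and 253 in WT and 92843 and 443 in Tabby. In all 3 probes the reference and the footpad signal were both highest, among the adult arrays, on Tabby replicate 1. The part of the reference was not tested.

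Whether the same probes were already higher in Tabby before adulthood was asked of the 16 arrays that the rule did not use. With limma on loess-adjusted log2 ratios and Benjamini-Hochberg adjustment over 30932 probes, of which 120 were members, few members passed 0.05. At E17.5 no member passed, beside 3 of all probes (0.0097%), and 10 members (8.33%) had an unadjusted p under 0.05, beside 12.3% of all. At P1 no member passed, beside 17 of all (0.055%), and 11 members (9.17%) had an unadjusted p under 0.05, beside 6.57% of all. At P3 there was 1 member, higher in Tabby, beside 133 of all (0.43%), 17 higher (0.055%) and 116 lower (0.375%). There, 10 members (8.33%) had an unadjusted p under 0.05, beside 12.8% of all. At P5 there was also 1, higher, beside 257 of all (0.831%), 31 higher (0.1%) and 226 lower (0.731%). There, 22 members (18.3%), 18 of them higher, had an unadjusted p under 0.05, beside 10.1% of all. Over the mean of the 4 stages, 20 members (16.7%) had an unadjusted p under 0.05, beside 18.1% of all. After adjustment there was 1 member, higher, beside 717 of all (2.32%), 130 higher (0.42%) and 587 lower (1.9%). Leaving out Tabby E17.5 replicate 1 raised the E17.5 count to 56, of which 46 were lower in Tabby, beside 33.1% of all probes. It raised the count of the mean to 36, of which 17 were higher, beside 22.7% of all. Leaving out Tabby E17.5 replicate 2 gave 0 and 14, of which 12 were higher, beside 5.66% of all. The P5 count of members also rose when any 1 of the 4 E17.5 arrays was left out, and most of those called were higher in Tabby. The share of all probes called at P5 rose with a Tabby E17.5 array left out. It was nearly unchanged with a WT E17.5 array left out. A group left with 1 array was assumed to vary like the others.

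The member called at P3 was Z00071351-1. In the array files' ratios it read 0.78 and 0.78 in WT and 1.35 and 1.40 in Tabby at P3. After normexp and loess the difference was 0.56 ± 0.06 (SE, n = 2 and 2, limma, adjusted p = 0.000749). Its Tabby arrays were above its WT arrays at every earlier stage, and the mean difference over the 4 stages was 0.27 ± 0.03 (limma, adjusted p = 0.000307). In adults it read 1.08 and 0.78 in WT and 2.33 and 1.88 in Tabby. The P3 call was lost when the adult arrays joined the fit (limma, adjusted p = 0.116).

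The member called at P5 was Z00058698-1. It read -0.69 and -0.58 in WT and 0.91 and 0.78 in Tabby at P5. In adults it read -0.20 and -0.20 in WT and 0.99 and 0.63 in Tabby. These are the array files' ratios, which differed by 1.47 at P5. After normexp and loess the P5 difference was 1.28 ± 0.24 (SE, n = 2 and 2, limma, adjusted p = 0.0332). The call was lost without any 1 array of P3 or P5 (limma, adjusted p 0.0523 to 0.301), with the array files' own log ratios (0.102), with the deposited value table (0.0977) and with scale normalization (0.275).

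From E17.5 through P1 and P3 to P5, the 120 members had median differences of -0.11, 0.04, 0.03 and 0.12, beside -0.05, 0.00, 0.00 and 0.01 over all probes. It was positive in 85 members (70.8%) at P5, beside 51.7% of all probes, and in 36 (30%) at E17.5, beside 35.1%. Both Tabby arrays were above both WT arrays in 13 members (10.8%) at E17.5, 27 (22.5%) at P1, 29 (24.2%) at P3 and 52 (43.3%) at P5, where the shares of all probes were 12.3%, 17%, 27.8% and 28.9%. Both were below in 20 members (16.7%), 16 (13.3%), 23 (19.2%) and 10 (8.33%), beside 20.1%, 16.1%, 28.2% and 26.6%.

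Applied at the earlier stages, the rule was met by 19, 21, 33 and 82 probes at E17.5, P1, P3 and P5 (0.0452%, 0.05%, 0.0786% and 0.195%), and members were among them only at P5, where there were 7 (5.69% of the members and 8.54% of the P5 list). These were Z00048536-1, Z00033190-1, Z00000460-1, Z00061939-1, Z00058698-1, Z00004595-1 and Z00062817-1. In all 7 the WT P5 group had the lowest mean of the 8 earlier groups. The rule at P5 picks probes with low WT P5 values, so this is partly built in, and other probes were not counted. Z00061939-1 read 2.15 and 2.40 in WT and 4.28 and 3.81 in Tabby at P5. Z00004595-1 read 1.60 and 1.49 against 2.80 and 2.84. Z00062817-1 read -1.35 and -1.16 against -0.12 and -0.27. At E17.5 the 7 showed a replicate pattern that the genotype does not order, counted after the values were seen and not over all probes. WT replicate 1 was above WT replicate 2 in 7 of 7, and Tabby replicate 2 above Tabby replicate 1 in 6 of 7. Over the 123 members the counts were 65 and 65. Z00058698-1, for example, read 1.53 and 0.48 in WT and 0.67 and 1.54 in Tabby at E17.5.

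Between P1 and P5 of both genotypes, 24 members were higher at P5 and 23 lower (limma, adjusted p under 0.05), which is 20% and 19.2% of the 120 tested, beside 19.4% and 16.4% of all probes. Before adulthood the WT peak fell at E17.5 for 20 members, P1 for 43, P3 for 26 and P5 for 34. These shares were 16.3%, 35.0%, 21.1% and 27.6%, beside 34.6%, 24.8%, 19.7% and 20.8% of all probes. Named after its values were seen, Z00074131-1 was 1.53 ± 0.24 (SE) higher at P5.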

How the data were processed

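Footpad RNA and a reference were measured on 20 two-colour arrays. Per the file headers, the scans were processed in Agilent Feature Extraction, version 9.5.1.1, and mean signals, backgrounds and processed signals are deposited as intensity. The deposited files give a log10 ratio of reference over footpad. It was multiplied by -3.322, the log2 of 10 with its sign turned, for the rule and for the values printed per array. The deposited table of processed values (log10, 25030 probes, centring unstated) served as an alternative and holds 72 members. Spots with the same probe name were averaged and control spots left out.

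For tests, mean signals were corrected by normexp (offset 50) and loess (limma 3.58.1 in R 4.3.3, with the data.table package, version 1.17.8), outlier spots were set to missing, and 8 groups were fitted over the 16 earlier arrays, with 8 residual and 3.05 prior degrees of freedom. Probes needed a Cy3 signal well above background on at least 2 arrays. The adult arrays were left out of this fit because they chose the members, and a fit over all 20 arrays was an alternative. Tests were two-sided with Benjamini-Hochberg adjustment and a threshold of 0.05. Summaries used pandas 2.3.3 in Python 3.11.15. On each array 64.7% to 72.1% of probes had Cy3 well above background. Precision is limited by having 2 arrays per group. On simulated data of P5 (30934 probes), the share of added changes that was called was 56.7% at 1.5-fold, 89.6% at 2-fold and 100% at 4-fold, with 9 false calls. The simulated noise was normal and independent between probes and arrays, with no shift shared by the probes of an array. These shares and false calls therefore need not hold for the real arrays.

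The members, lists and thresholds were chosen with earlier results of these data known. Named probes were the 12 members with the widest gap, 3 members inside and 3 probes outside each threshold, and members called at a stage or in the mean, up to 4 per direction. Others were chosen after their values were seen. The planned lists of marker and pathway genes need gene names and were not used here, so the labelled tissue was not checked against markers. Alternatives were the background correction, normalization, channel, filter, array weights, spread, replicate block, value table, arrays in the fit and leaving out each array.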

Additional observations from a re-analysis of the deposited data

Results flagged for a closer look

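In 4 members the array files' log2 ratios stood apart in opposite directions at an earlier stage and in adults, with the gap of 0.6 and the signal minimum met both times. With WT above Tabby, the rule was met by 140 probes at P3 (0.333%) and 233 at P5 (0.555%), with 2 members (1.63%) at each. The difference between the stages was not tested. In 2 of the 4 members the opposition was also present after normexp and loess. Z00024153-1 differed by -1.19 (Tabby minus WT) at P3, with 4.08 and 3.57 in WT and 2.42 and 2.85 in Tabby, and by 1.86 in adults. After loess these differences were -1.24 and 1.16. Z00027046-1 differed by -0.95 at P3, with 3.33 and 2.98 in WT and 2.19 and 2.21 in Tabby, and by 1.72 in adults. After loess they were -0.67 and 0.81. Neither P3 difference passed the threshold (limma, adjusted p = 0.154 and 0.163).

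In the other 2 the opposition was not present after loess. Z00047134-1 differed by -0.90 at P5 and by 1.91 in adults, but by 0.55 and 1.03 after loess. Its Cy3 signal at P5 was higher in Tabby, at 1823 and 1731 against 898 and 1216, and its Cy5 signal was 35.0 and 24.9 beside Tabby and 7.6 and 11.4 beside WT, where it was not well above background. Z00071844-1 differed by -2.21 at P5 and by 1.53 in adults, but by -0.14 and -0.30 after loess. Its Cy3 signal at P5 was 174 and 218 in WT and 219 and 300 in Tabby, and its Cy5 signal was 7.4 and 7.1 beside WT, where it was not well above background, and 16.2 and 119 beside Tabby.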

How the results depend on the processing

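The number of members depended on the rule's own settings. A gap of 0.4 gave 366, 0.8 gave 68 and 1.0 gave 27, and no signal minimum gave 647. Normexp and loess ratios gave 55, of which 46 were among the 123, Cy3 alone gave 85, of which 44 were, and the value table gave 148, of which 71 were. Leaving out 1 adult array gave 255 to 1263. The median adult difference was 0.78 with normexp and loess, and 1.06 to 1.17 with an adult array left out.

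Counts of members called before adulthood were small and moved with the processing, as did those of all probes. The share of all probes follows each count, except where an array was left out. At P1 they were 2 without background subtraction (0.621%) and 1 with Cy3 alone (0.821%), all lower in Tabby. At P3 they were 0 with all 20 arrays (0.246%), 4 with the compared arrays only (2 higher, 1.01%), 12 without background subtraction (7 higher, 4.76%), 5 with the array files' log ratios (4 higher, 1.61%), 9 with Cy3 alone (6 higher, 4.75%), 3 with the value table (2 higher, 3.9%) and 13 with array weights (9 higher, 10.5%). At P5 they were 15 with the compared arrays only (14 higher, 2.93%), 8 without background subtraction (7 higher, 2.8%), 0 with the array files' log ratios (1.16%), 0 with scale normalization (0.624%), 4 with Cy3 alone (4 higher, 2.47%) and 19 with array weights (17 higher, 8.1%). For the mean over the 4 stages they were 18 without background subtraction (15 higher, 10.3%), 8 with the array files' log ratios (8 higher, 5.5%), 18 with Cy3 alone (16 higher, 10.3%), 5 with the value table (4 higher, 8.25%) and 3 with array weights (3 higher, 1.77%). Between P1 and P5 the value table gave 30 of its 72 (37.3% of all). With an array left out the counts were 0 to 56 at E17.5, 0 to 3 at P1, 1 to 7 at P3, 0 to 7 at P5, 1 to 36 for the mean and 41 to 61 between P1 and P5. At the highest count of each of these ranges, the share of all probes called was also above that with all 16 earlier arrays. This did not hold for every rise. With either WT E17.5 array left out, the P5 count of members rose while the share of all probes was nearly unchanged. Without WT E17.5 replicate 1 the count of the mean rose while the share of all probes fell. In these fits a group left with 1 array was assumed to vary like the others. The causes were not tested.

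The replicate numbers are shared by the groups, but the labels do not say that they pair samples. As a check, the difference of replicate 1 minus replicate 2 in WT was correlated over probes with the same difference in Tabby. The correlation was 0.09, 0.04, -0.07 and 0.13 at E17.5, P1, P3 and P5, and 0.23 in adults. With the replicate number as a block, Z00058698-1 was no longer called at P5 (limma, adjusted p = 0.0626), and Z00023652-1, lower in Tabby by a difference of -0.66, was called in its place (limma, adjusted p = 0.0245, against 0.0887 without the block). The mean over the stages gave 2 members, Z00071351-1 and Z00023652-1.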
